A study of Rattus norvegicus with 8 samples.

Results

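Rab proteins are small GTPases that mark the membranes of the cell. Bound to GTP, a Rab recruits effectors such as motors, tethers and lipid enzymes to a vesicle or organelle, and each membrane step, from the endoplasmic reticulum to the cell surface and back through endosomes, uses its own Rabs. In the lung they are known for their part in the release of surfactant from lamellar bodies, in mucin and mast cell granule secretion, in the recycling of receptors at epithelial surfaces and in the release of extracellular vesicles (EVs). The Rab genes were taken from the array by name: every probe whose RefSeq accession belonged to a rat gene called Rab with a number was a member, whatever its values. Of 58 such genes in the RefSeq table, 54 were matched by 70 of the 45598 probes, and 64 probes of 49 genes were bright enough to be tested among 29612 probes. Rab30, Rab39a, Rab3c, Rab40c and Rab9b were not well above background on both arrays of any group, nor was 1 of the Rab7b probes, and no probe was matched to Rab22a, Rab37, Rab42 and Rab44.

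The samples were lungs of male rats, hybridised to 1-colour microarrays in 4 groups of 2 samples. EV-treated rats breathed cigarette smoke for 12 weeks and in week 13 received, into the trachea, EVs isolated from mesenchymal stem cells (MSCs) of human umbilical cord. MSC-treated rats had the same smoke exposure and received the cells themselves by the same route in the same week. The dose was about 2500000 cells, or the EVs of as many cells. Smoke rats had 12 weeks of smoke alone, normal-air rats had none, and strain, age and the time between treatment and sampling were not given in the sources used here. No treatment was given to rats breathing normal air, so each treatment can be set against smoke or against normal air but not tested without smoke.

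A level is the log2 processed signal of a probe minus the 75th percentile of its array, so 0 means as bright as that percentile. That percentile was 762.2 and 482.8 signal units on the EV-treated arrays, 245.7 and 256.4 on the MSC-treated arrays, 3235 and 2677 on the smoke arrays and 568.4 and 362.2 on the normal-air arrays. Smoke arrays were thus 6.49 times as bright as normal-air arrays at this point, while the E1A spike-in controls stood at 0.832 of their normal-air level. Slide column and group cannot be told apart, since the arrays of each group sat in 1 column. Nothing in the labels says that the 2 samples of a group came from different animals, and the p-values then measure the spread between these samples only, which may be technical. Genes of alveolar type 2 cells were bright on all 8 arrays. The mean level over 6 of their probes was 5.30 to 5.49 on EV-treated, 4.65 to 5.76 on MSC-treated, 5.13 to 5.34 on smoke and 5.78 to 5.79 on normal-air arrays. Not all epithelial markers were bright. The mean over 3 probes of ciliated cell genes was -1.88 to -1.66 on EV-treated, -1.88 to -0.71 on MSC-treated, -2.49 to -2.30 on smoke and -2.22 to -1.24 on normal-air arrays. In a piece of whole lung, fewer cells of a type and less RNA per cell cannot be told apart. Treated replicates were far apart at some markers. The mean over 3 probes of cardiac muscle genes was -2.02 and 2.77 on EV-treated and -0.73 and 3.94 on MSC-treated arrays. On smoke arrays it was -3.49 and -2.74, and on normal-air arrays -2.92 and -1.66. That of 4 secretory cell probes was 1.34 and 4.73 on MSC-treated arrays. Whether the lung pieces of a group differed in such tissue was not tested.

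In smoke lungs 29 of the 64 Rab probes differed from normal-air lungs, 18 higher and 11 lower (limma, Benjamini-Hochberg adjusted p under 0.05 over all 29612 probes). Of all probes, 46.5% were called in this comparison, 12.8% higher and 33.7% lower, so the share of Rab probes called, 28.1% higher and 17.2% lower, was split the other way. Of the 16046 kept probes with a gene symbol, as every Rab probe has, 15.6% were called higher and 27.4% lower, with a median of -0.33. Against those probes the gap was smaller. The median difference was -0.04 for Rab probes and -0.56 for all probes (log2, smoke minus normal air), and 46 of 64 Rab probes lay above the median of all probes. The 18 Rab probes called higher included those of Rab3a, Rab11b, Rab25 and Rab38, and the 11 called lower included those of Rab31, Rab14, Rab4a, Rab23 and Rab28. The probes called higher had a median level of -1.76 over all arrays and those called lower 1.18, so dimmer probes lay more on the higher side. Among the 13 Rab probes that were not well above background on both normal-air arrays, 7 were called higher and 0 lower, where 15.9% of all such probes were called higher and 22.3% lower. Such probes could pass the filter only through another group, so this count supports nothing. The other 51 had 11 called higher and 11 lower, or 21.6% each, where 11.6% of all probes bright on both normal-air arrays were called higher and 38.1% lower.

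The direction of these calls rests on how arrays of such different brightness are made comparable. Scaled to the E1A controls, 63 Rab probes were higher and 0 lower in smoke lungs, with a median of 2.93 for Rab probes and 2.41 for all probes, and 83.5% of all probes were called higher and 0.459% lower. Quantile normalization gave 21 higher and 3 lower, cyclic loess 25 and 1, the percentile taken over probes in place of spots 18 and 4, the percentile over probes bright on all 8 arrays 21 and 5, and normexp background correction 12 and 24. Of all probes, 18.4% were called higher and 18.4% lower under quantile normalization, 21.5% and 19.7% under cyclic loess, and 7.85% and 66% under normexp. Relative to the median of all probes the Rab median was 0.52 higher under both the percentile and the E1A scale, since a factor common to an array cancels. The count fell to 6 without smoke replicate 1, 13 without normal-air replicate 2, 15 without smoke replicate 2 and 19 without EV-treated replicate 1 or replicate 2, which enter only through the shared spread. The calls of Rab25, Rab3a, Rab11b, Rab38, the higher Rab2b probe and the lower Rab35 probe held without any 1 array.

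**Figure D1:**
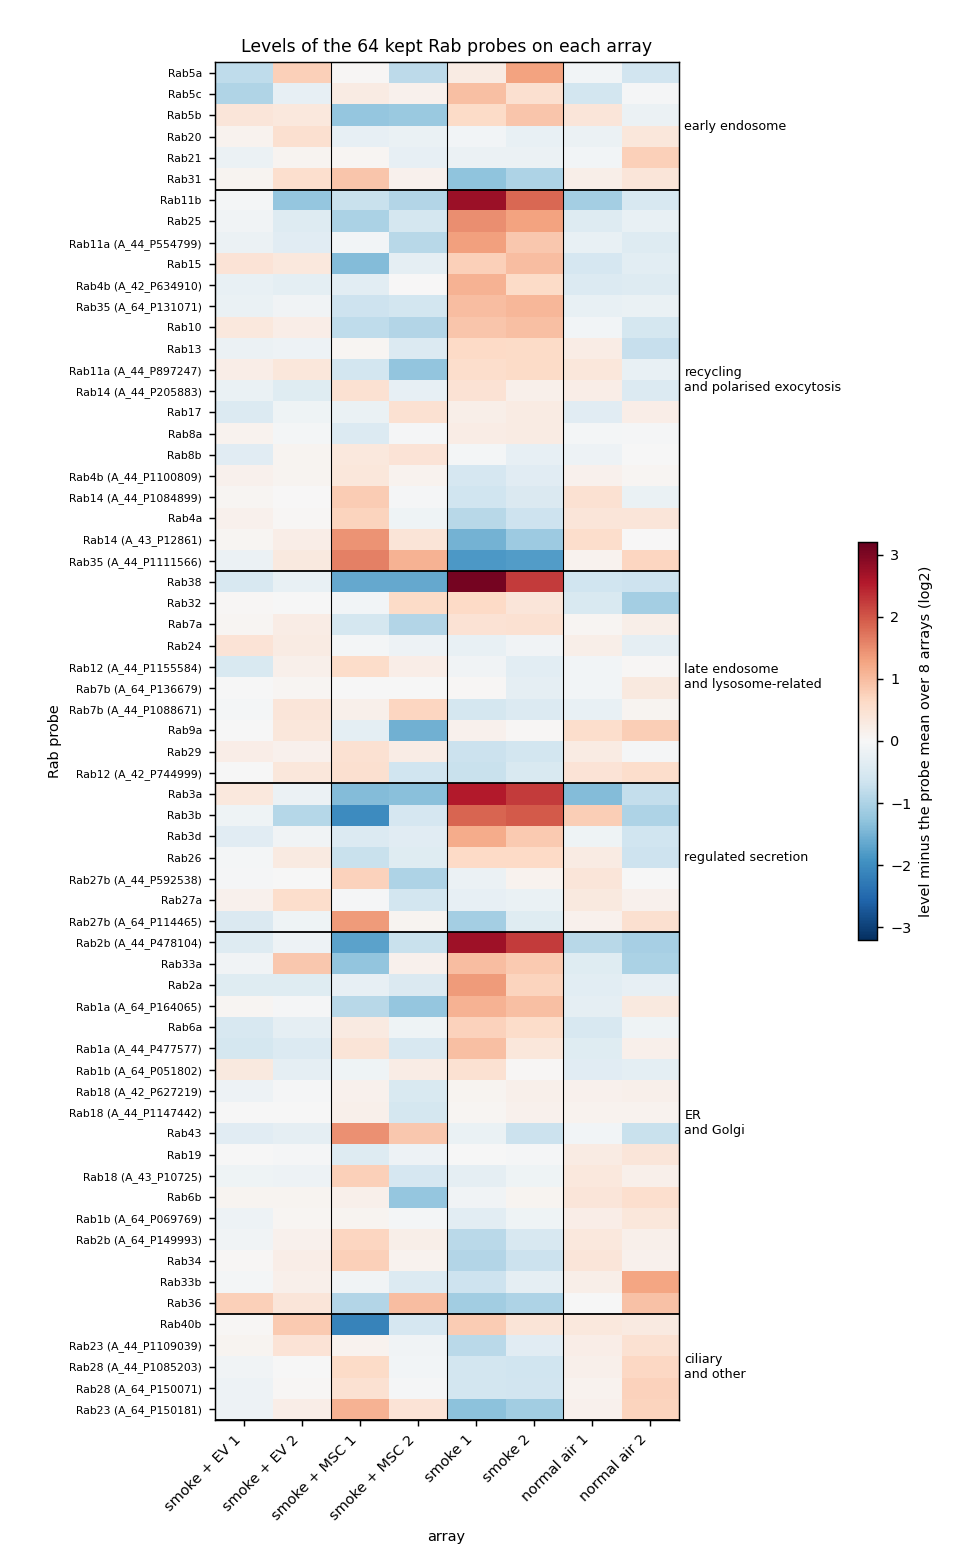
Level of each of the 64 kept Rab probes (rows, in blocks by role) on each of the 8 arrays (columns), as the difference from the probe's mean over all arrays in log2 units, red above and blue below. Against normal air, 18 probes were called higher in smoke lungs and 11 lower. The smoke columns stand apart from all others at some of them, such as Rab38, Rab3a, Rab11b, both Rab2b probes and Rab31. At Rab32, Rab33a and Rab33b they overlap with a treated group. In neither treated group was any Rab probe called against normal air.

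Against smoke lungs, 19 Rab probes were called in EV-treated lungs, 5 higher and 14 lower, where 39% of all probes were called, 28.4% higher and 10.6% lower. In MSC-treated lungs 31 were called, 11 higher and 20 lower, where 58.8% of all probes were called, 41.9% higher and 16.9% lower. The Rab median was -0.05 in EV-treated and -0.23 in MSC-treated lungs against smoke lungs, and that of all probes 0.50 and 0.67. Kept probes with a gene symbol lay closer to the Rab probes, with medians of 0.30 and 0.38. Of them, 22% were higher and 12.7% lower in EV-treated lungs, and 35.1% and 20.3% in MSC-treated lungs. These comparisons share the 2 smoke arrays with the one above, so their differences are given beside it and are not separate evidence. Scaled to the E1A controls, 60 Rab probes were lower in EV-treated and 63 in MSC-treated lungs, with 0 higher in both, where 74.5% and 88.5% of all probes were lower. Normexp turned the split to 17 higher and 11 lower in EV-treated lungs and 25 and 11 in MSC-treated lungs, where 60.9% and 70.3% of all probes were higher. For EV-treated lungs the splits were 2 higher and 16 lower under quantile normalization and 2 and 17 under cyclic loess, and for MSC-treated lungs they were 5 and 32, and 3 and 34, with 5 and 26 for the percentile over probes. The EV-treated count fell to 3 without smoke replicate 1, 4 without EV-treated replicate 2, 7 without EV-treated replicate 1 and 12 without smoke replicate 2, and the MSC-treated count to 20 without smoke replicate 1.

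**Figure D2:**
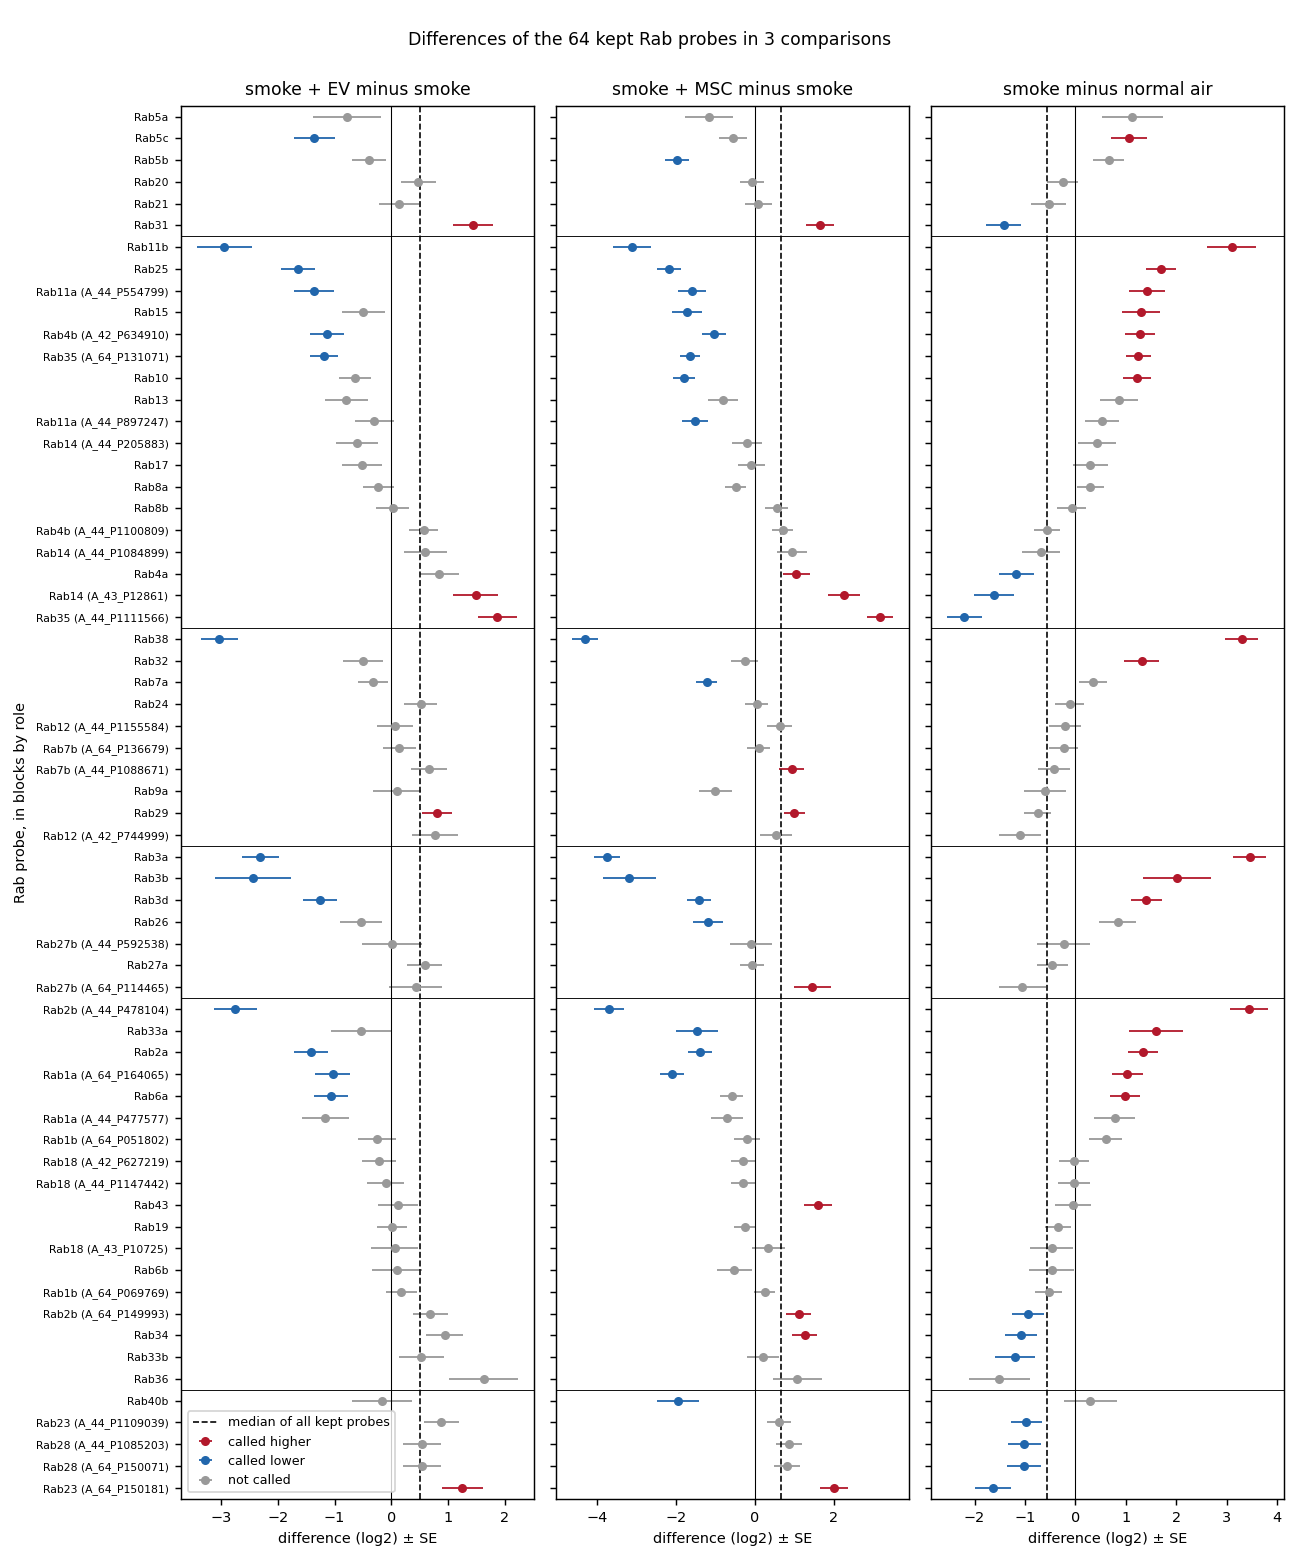
Difference of each kept Rab probe (log2, point, with its standard error) in EV-treated minus smoke, MSC-treated minus smoke and smoke minus normal-air lungs, coloured by the call, with the median of all kept probes as a dashed line. Called probes number 19, 31 and 29 in the 3 panels, which share the smoke arrays.

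The start of 4 of these genes is shown, each with a probe called in smoke against normal air on the percentile scale. Rab3a, the Rab of synaptic and endocrine granules, Rab11b, a Rab of the recycling endosome, and Rab25, its epithelial relative, were called higher. Rab31, which carries cargo between the trans-Golgi network and endosomes, was called lower. The Rab3a difference was -0.01 under normexp, and neither normal-air array was well above background there. That of Rab31 was 1.55 on the E1A scale. Each window runs from 250 bases before to 50 bases after the start of the gene, in RefSeq's GRCr8 assembly, and all 4 lie on the minus strand: chr16:18722224-18722523 for Rab3a, chr7:15236705-15237004 for Rab11b, chr2:176304172-176304471 for Rab25 and chr9:112828043-112828342 for Rab31. Capitals mark the GC box, GGGCGG on either strand.
Rab3a: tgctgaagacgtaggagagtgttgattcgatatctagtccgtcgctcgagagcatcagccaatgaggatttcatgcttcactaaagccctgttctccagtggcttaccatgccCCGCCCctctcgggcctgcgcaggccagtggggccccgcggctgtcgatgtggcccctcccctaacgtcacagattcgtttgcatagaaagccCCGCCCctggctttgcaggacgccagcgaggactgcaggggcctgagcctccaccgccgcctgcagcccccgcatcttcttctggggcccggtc
Rab11b: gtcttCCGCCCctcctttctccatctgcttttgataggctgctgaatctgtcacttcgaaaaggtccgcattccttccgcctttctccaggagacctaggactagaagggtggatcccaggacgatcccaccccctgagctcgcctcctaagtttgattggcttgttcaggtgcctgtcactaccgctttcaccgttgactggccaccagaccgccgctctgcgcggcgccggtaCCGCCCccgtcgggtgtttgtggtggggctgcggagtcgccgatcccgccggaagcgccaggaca
Rab25: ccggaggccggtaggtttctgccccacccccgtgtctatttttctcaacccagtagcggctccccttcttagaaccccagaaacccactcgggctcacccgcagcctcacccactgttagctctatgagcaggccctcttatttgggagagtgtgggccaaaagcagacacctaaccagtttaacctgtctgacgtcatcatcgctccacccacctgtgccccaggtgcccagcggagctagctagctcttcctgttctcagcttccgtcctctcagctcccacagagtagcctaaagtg
Rab31: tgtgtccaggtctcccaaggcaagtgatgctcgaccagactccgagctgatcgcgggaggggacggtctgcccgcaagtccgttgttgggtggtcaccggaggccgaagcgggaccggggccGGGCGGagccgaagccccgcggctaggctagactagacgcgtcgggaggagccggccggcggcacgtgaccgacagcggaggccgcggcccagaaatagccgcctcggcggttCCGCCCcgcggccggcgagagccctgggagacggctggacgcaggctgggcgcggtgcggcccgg

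Such windows were found for 45 of the 54 Rab genes, 46 windows in all. The GC box, the classical site of Sp1-type factors, was in 36 of the 46, or 78.3%, and in 33.1% of the 33469 windows of all genes. The Rab windows had a median GC content of 63.3%, against 51.7% over all windows. The Rab25 window holds no GC box, and its GC content is 57.7%. Other motifs searched on both strands were GCGTG, the core of the xenobiotic response element, in 43.5% of Rab windows and 29.7% of all, CACGTG, an E-box form bound by lysosomal gene regulators, in 8.70% and 6.42%, TGACTCA, the AP-1 site, in 8.70% and 4.63%, and CCAAT in 37.0% and 37.5%. Matches of different motifs shared bases in 0 Rab windows. GCGTG was in 5 of 13 windows of genes called only higher with smoke and in 1 of 6 windows of genes called only lower, and the GC box in 10 of 13 and 5 of 6. A match here is a run of letters, not a site known to be used.

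The counts by role, here and below, are set beside those of all probes in smoke lungs. Of all probes, 12.8% were called higher and 33.7% lower, with a median of -0.56. Of the kept probes with a gene symbol, these were 15.6% and 27.4%, with a median of -0.33. Of the 7 probes of regulated secretion Rabs, 3 were called higher in smoke lungs and 0 lower. Rab3a and Rab3b, among the 3, were well above background on both arrays of the smoke group alone and entered the test through it, so the count is no support for a change of this role. Rab3a was at -5.47 and -5.99 in EV-treated, -7.18 and -7.14 in MSC-treated, -3.27 and -3.56 in smoke and -7.18 and -6.57 in normal-air lungs. Both smoke arrays lay above the other 6, and neither normal-air array nor either MSC-treated array was well above background at this probe. Its difference was 3.46 ± 0.33 in smoke against normal-air lungs (log2, SE, n = 2 each, limma adjusted p = 0.00228), at least 7.29-fold higher, and under normexp it was -0.01. Against smoke it was lower by 2.31 in EV-treated lungs (first minus second -2.31, adjusted p = 0.00448 by limma) and at least 5.58-fold lower in MSC-treated lungs. Under normexp these became -0.16 and 0.62 and were not called. Of the neuronal and neuroendocrine markers, the Snap25 probe was well above background on 0 of 8 arrays and the Syp probes on 0 and 1 of 8. The 2 such probes that were kept had a mean level of -5.29 to -4.12 on EV-treated, -4.51 to -4.14 on MSC-treated, -5.20 to -4.69 on smoke and -4.16 to -3.88 on normal-air arrays.

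Rab3b, its epithelial and endocrine relative, was at -5.35 and -6.11 in EV-treated, -7.21 and -5.75 in MSC-treated, -3.34 and -3.24 in smoke and -4.42 and -6.20 in normal-air lungs. The smoke arrays were highest, the normal-air arrays were far apart and 1 of them was well above background, and the call in smoke (2.02 ± 0.67, limma adjusted p = 0.0410) became -0.13 under normexp. Rab3b was also called lower in EV-treated (-2.44, limma adjusted p = 0.0258) and MSC-treated lungs than in smoke lungs (-3.19, at least 5.78-fold), calls that normexp ended (-0.29 and 0.48). The Rab3b calls in smoke, EV-treated and MSC-treated lungs held in 10, 12 and 17 of 18 other settings. Rab3d, the Rab3 of exocrine and type 2 cell granules, was at -1.81 and -1.56 in EV-treated, -1.88 and -1.82 in MSC-treated, -0.26 and -0.61 in smoke and -1.60 and -2.09 in normal-air lungs. Here the probe was bright on all arrays and the smoke arrays lay above all others. Rab3d differed by 1.41 ± 0.30 in smoke lungs (limma adjusted p = 0.00878), by -1.25 ± 0.30 in EV-treated (adjusted p = 0.0169) and by -1.41 ± 0.30 in MSC-treated lungs against smoke (adjusted p = 0.00542). These Rab3d calls held in 18, 16 and 19 of 19 other settings, and those lost were lost with 1 array left out. Rab26, which acts in the maturation of secretory granules, was called in MSC-treated lungs alone (-1.19, limma adjusted p = 0.0252, and 0.30 under normexp), and the difference between the treatments, 0.66 ± 0.37, was not (adjusted p = 0.262).

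Rab27a and Rab27b, which dock secretory granules and multivesicular bodies at the plasma membrane and are the Rabs best known for EV release, were not called in smoke against normal-air lungs. Rab27a was at 1.09 and 1.52 in EV-treated, 0.91 and 0.37 in MSC-treated, 0.69 and 0.74 in smoke and 1.26 and 1.09 in normal-air lungs. The smoke arrays lay below the normal-air arrays by 0.46 (first minus second -0.46 ± 0.31, limma adjusted p = 0.246), so a difference of that size was not detectable with these arrays. The Rab27b probes A_64_P114465 and A_44_P592538 gave differences of -1.05 ± 0.47 and -0.23 ± 0.53 (limma adjusted p = 0.100 and 0.743). At the first of them MSC-treated arrays were at -0.30 and -1.59 and smoke arrays at -2.75 and -2.06, and it was called (1.45 ± 0.47, limma adjusted p = 0.0298), while the other probe differed by -0.09. The MSC-treated replicates were far apart at both probes, and the call at the first held in 11 of 19 other settings.

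**Figure D3:**
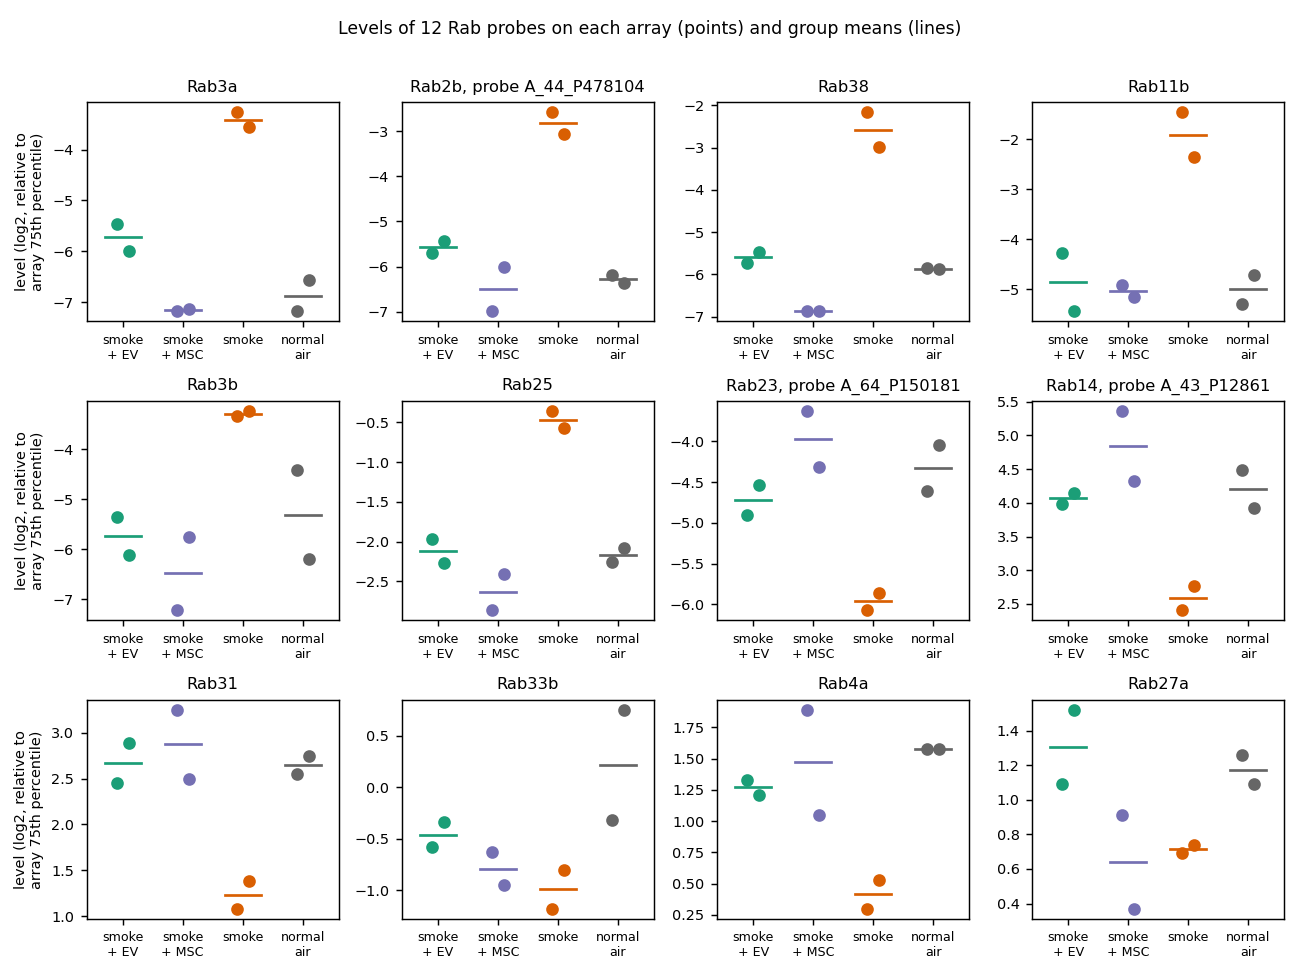
Level of 12 Rab probes on each array (points) and group means (lines), in log2 units relative to the 75th percentile of the array, by group. The first 6 panels show probes called higher in smoke lungs, among them Rab3a, where neither normal-air array was well above background, and Rab25, which differed by 1.70, the next 5 show probes that were lower there, and the last shows Rab27a, whose difference of -0.46 was not called.

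Among late endosome and lysosome-related Rabs, 2 of 10 probes were called higher in smoke lungs and 0 lower, with a median of -0.22. Both belong to the pair that builds lysosome-related organelles. Rab38, whose loss in rats disturbs the lamellar bodies of type 2 cells, was at -5.73 and -5.47 in EV-treated, -6.87 and -6.87 in MSC-treated, -2.17 and -2.98 in smoke and -5.86 and -5.88 in normal-air lungs. In signal units before scaling these are 14.34 and 10.86, then 2.104 and 2.186, then 720.9 and 338.2, and 9.792 and 6.139. The smoke arrays were brighter at most probes before scaling, so the signal units show the dim level of the others and not a difference between groups. On the level scale the smoke arrays lay above all others, 1 of the 2 normal-air arrays was well above background, and neither MSC-treated array was, so Rab38 entered the test through the smoke group. The difference was 3.30 ± 0.33 in smoke against normal-air lungs (limma adjusted p = 0.00228), and Rab38 was lower in EV-treated than in smoke lungs (-3.03 ± 0.33, adjusted p = 0.00357). In MSC-treated lungs it was at least 9.99-fold lower than in smoke lungs (limma adjusted p = 0.000237), though under normexp the difference was 0.06. The other calls of Rab38 were also lost under normexp, at 0.41 in smoke against normal air and -0.69 in EV-treated against smoke lungs (limma adjusted p = 0.247 and 0.0606). Of the 6 probes of type 2 cell markers, 1 was called higher and 3 lower in smoke than in normal-air lungs. The probes of surfactant protein A, Sftpa1, averaged 3.63 and 5.29 in smoke lungs and 2.05 and 4.68 in normal-air lungs. Those of surfactant protein B, Sftpb, averaged 6.54 and 6.11 in smoke lungs and 7.68 and 7.53 in normal-air lungs, and Sftpc, surfactant protein C, averaged 7.46 in smoke lungs and 9.69 in normal-air lungs. The part of type 2 cells in the Rab38 values was not tested.

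Rab32, the partner of Rab38, was at -4.11 and -4.16 in EV-treated, -4.25 and -3.53 in MSC-treated, -3.51 and -3.76 in smoke and -4.65 and -5.25 in normal-air lungs. Smoke exceeded normal air by 1.32 ± 0.35 (limma adjusted p = 0.0199), with 1 of 2 normal-air arrays well above background, and the direction turned to -0.58 under normexp. It was not called in either treated group, where its difference from smoke was -0.50 with EVs and -0.26 with MSCs. Rab7a, the Rab of late endosome and lysosome fusion, was at -1.93 and -1.75 in EV-treated, -2.55 and -2.92 in MSC-treated, -1.53 and -1.50 in smoke and -1.92 and -1.81 in normal-air lungs. The MSC-treated arrays were the lowest, and only that comparison was called for it (-1.22 ± 0.27 against smoke, limma adjusted p = 0.00672), with -0.36 and no call under normexp. Rab29, a partner of the kinase LRRK2 at lysosomes, and Rab7b, which leads from endosomes back to the Golgi, were called higher in MSC-treated lungs (1.00 and 0.93), and Rab29 also in EV-treated lungs (0.81, limma adjusted p = 0.0474). The Rab7b call held in 7 of 19 other settings and was lost without any 1 of 5 arrays (both smoke, both EV-treated and MSC-treated replicate 2, adjusted p up to 0.152). The Rab29 call in EV-treated lungs held in 6 of 19 and was lost without any 1 smoke, EV-treated or normal-air array (adjusted p up to 0.207), and that in MSC-treated lungs held in 12 of 19 and was lost without either smoke array (adjusted p up to 0.0827). Rab7b was at -3.09 and Rab29 at -3.02 in MSC-treated against smoke lungs on the E1A scale. Rab9a, Rab12 and Rab24 were called in none of these comparisons, with Rab12 closest in smoke lungs (-1.10, limma adjusted p = 0.0586).

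Of 18 probes of recycling and polarised exocytosis Rabs, 7 were called higher and 3 lower in smoke lungs, with a median of 0.48. All 3 members of the Rab11 family, which return receptors from recycling endosomes and carry cargo to the apical surface, were called higher by at least 1 probe. Rab11b was at -4.27 and -5.44 in EV-treated, -4.91 and -5.15 in MSC-treated, -1.46 and -2.36 in smoke and -5.29 and -4.72 in normal-air lungs. The 2 smoke arrays lay well above the other 6, of the normal-air arrays 1 was well above background, and the differences were 3.1 ± 0.48 in smoke against normal air and -2.94 ± 0.48 in EV-treated against smoke lungs (limma adjusted p = 0.00327 and 0.00550). In MSC-treated lungs it was at least 8.71-fold lower than in smoke lungs, a call lost under normexp (limma adjusted p = 0.142). Rab25 was at -1.97 and -2.27 in EV-treated, -2.86 and -2.41 in MSC-treated, -0.36 and -0.57 in smoke and -2.26 and -2.08 in normal-air lungs. Its probe was bright on all 8 arrays, and its call in smoke lungs (1.70 ± 0.30, limma adjusted p = 0.00454) held under all 19 other settings tried. Against smoke it was lower in EV-treated (-1.65 ± 0.30) and MSC-treated lungs (-2.17 ± 0.30), with limma adjusted p = 0.00681 and 0.000818.

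Rab11a had 2 probes that moved unequally. Probe A_44_P554799 was at -0.78 and -0.95 in EV-treated, -0.69 and -1.49 in MSC-treated, 0.73 and 0.27 in smoke and -0.84 and -1.0 in normal-air lungs. It differed by 1.42 ± 0.35 in smoke lungs (limma adjusted p = 0.0148), with no overlap between the groups, and the probe A_44_P897247 by 0.53 ± 0.34 (adjusted p = 0.229). Both were lower in MSC-treated than in smoke lungs, by -1.59 and -1.52 (first minus second). Rab10, a Rab of basolateral delivery and glucose transporter traffic, was at -0.25 and -0.38 in EV-treated, -1.39 and -1.53 in MSC-treated, 0.29 and 0.37 in smoke and -0.67 and -1.14 in normal-air lungs. The 4 groups did not overlap, and the MSC-treated arrays were lowest. Rab10 was called in smoke (1.23 ± 0.28, limma adjusted p = 0.0114) and in MSC-treated lungs against smoke (-1.79 ± 0.28, adjusted p = 0.00149), and the difference between EV-treated and MSC-treated lungs, 1.15 ± 0.28, missed the threshold (adjusted p = 0.0552). Rab15, which slows recycling from early endosomes, was 1.30 higher in smoke lungs and 1.71 below smoke in MSC-treated lungs (first minus second -1.71, limma adjusted p = 0.00664).

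Rab8a, which brings vesicles to the apical membrane and cilium, was at 1.37 and 1.18 in EV-treated, 0.82 and 1.20 in MSC-treated, 1.48 and 1.52 in smoke and 1.18 and 1.22 in normal-air lungs. Its difference in smoke lungs was 0.30 ± 0.27 (limma adjusted p = 0.394). Rab8b, Rab13 and Rab17 were not called in any of the 3 comparisons. Rab4a, of the fast recycling route, was at 1.33 and 1.21 in EV-treated, 1.89 and 1.05 in MSC-treated, 0.30 and 0.53 in smoke and 1.58 and 1.58 in normal-air lungs. The smoke arrays were the lowest, and the difference of -1.17 ± 0.34 (limma adjusted p = 0.0259) was 1.80 on the E1A scale. This Rab4a call held in 11 of 19 other settings.

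Genes with several probes limit what can be said of a gene from 1 of them. Of the 49 genes, 13 had more than 1 kept probe, and in 5 of these the probes differed in sign between smoke and normal-air lungs. Rab35, which acts in recycling, cytokinesis and EV release, was called in both directions. Its probe A_64_P131071 was at 0.62 and 0.71 in EV-treated, 0.15 and 0.23 in MSC-treated, 1.80 and 1.88 in smoke and 0.58 and 0.60 in normal-air lungs, so smoke was highest with hardly any spread. The other, A_44_P1111566, was at -3.23 and -2.73 in EV-treated, -1.43 and -1.93 in MSC-treated, -4.88 and -4.83 in smoke and -2.94 and -2.36 in normal-air lungs, so smoke was lowest. The smoke differences were 1.25 ± 0.25 and -2.20 ± 0.34 (limma adjusted p = 0.00755 and 0.00333), and those in MSC-treated against smoke lungs -1.65 and 3.17. The mean of the 2 probes differed by -0.48 in smoke lungs (limma adjusted p = 0.188).

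Rab2b, which acts with Rab2a between the endoplasmic reticulum and the Golgi, showed the same. Probe A_44_P478104 was at -5.69 and -5.44 in EV-treated, -6.99 and -6.01 in MSC-treated, -2.58 and -3.05 in smoke and -6.18 and -6.36 in normal-air lungs. It was 3.45 ± 0.38 higher in smoke lungs, where 1 of 2 normal-air arrays was well above background, and at least 8.46-fold lower in MSC-treated than in smoke lungs, a difference that was 0.11 under normexp. The smoke difference was 0.48 under normexp and not called (limma adjusted p = 0.150). Probe A_64_P149993 was at 0.51 and 0.75 in EV-treated, 1.31 and 0.80 in MSC-treated, -0.24 and 0.12 in smoke and 0.96 and 0.79 in normal-air lungs, and was called lower in smoke (-0.94 ± 0.31, limma adjusted p = 0.0397), a call that held in 5 of 19 other settings and was 2.03 on the E1A scale. Of the 3 probes of Rab14, which works between the Golgi and early endosomes, A_43_P12861 was at 3.99 and 4.15 in EV-treated, 5.36 and 4.33 in MSC-treated, 2.41 and 2.77 in smoke and 4.49 and 3.93 in normal-air lungs. It was lower in smoke (-1.62 ± 0.40, limma adjusted p = 0.0151), and probes A_44_P1084899 and A_44_P205883 differed by -0.68 and 0.43 and were not called. Rab4b also had 1 probe called higher (A_42_P634910, 1.28) and 1 at -0.56 that was not called.

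**Figure D4:**
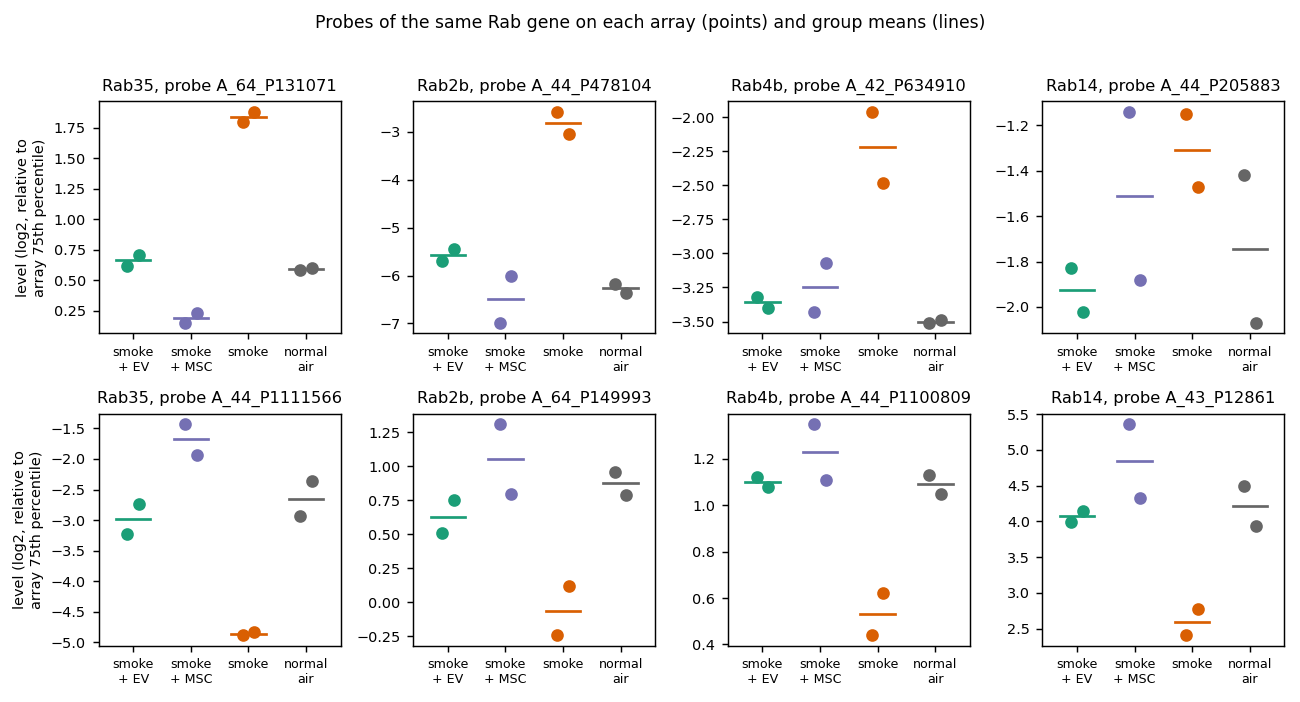
Level of 2 probes of each of Rab35, Rab2b, Rab4b and Rab14 on each array (points) and group means (lines), in log2 units relative to the 75th percentile of the array, by group. In the upper row the mean of the smoke arrays is the highest and in the lower row they are lowest, for example 1.80 and 1.88 at the upper Rab35 probe and -4.88 and -4.83 at the lower one.

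Early endosome Rabs had 1 of 6 probes higher and 1 lower in smoke lungs, with a median of 0.21. Rab5c, which drives fusion of early endosomes, was at -2.63 and -1.94 in EV-treated, -1.42 and -1.53 in MSC-treated, -0.71 and -1.15 in smoke and -2.27 and -1.71 in normal-air lungs. It was called higher in smoke (1.07 ± 0.36, limma adjusted p = 0.0433) and lower in EV-treated than in smoke lungs (-1.36 ± 0.36, adjusted p = 0.0227). These Rab5c calls held in 10 and 15 of 19 other settings. Rab5a, of the same function, was at -5.28 and -3.71 in EV-treated, -4.43 and -5.31 in MSC-treated, -4.22 and -3.2 in smoke and -4.57 and -5.10 in normal-air lungs. The groups overlapped in part and the EV-treated replicates were far apart, and its difference in smoke of 1.13 ± 0.60 was not called (limma adjusted p = 0.158) and was -0.74 under normexp.

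Rab31 was at 2.45 and 2.89 in EV-treated, 3.25 and 2.50 in MSC-treated, 1.08 and 1.38 in smoke and 2.55 and 2.75 in normal-air lungs. Smoke arrays lay below all others, by -1.42 ± 0.35 against normal air (limma adjusted p = 0.0143), and the E1A scale gave 1.55. Against smoke it was called higher in EV-treated (1.44 ± 0.35) and MSC-treated lungs (1.65 ± 0.35), limma adjusted p = 0.0167 and 0.00515. Rab5b was the single Rab probe called between the treatments. It was at 0.82 and 0.77 in EV-treated, -0.79 and -0.76 in MSC-treated, 1.06 and 1.33 in smoke and 0.82 and 0.24 in normal-air lungs, so the MSC-treated arrays were lowest and did not overlap with any other group. EV-treated exceeded MSC-treated lungs by 1.57 ± 0.30 (limma adjusted p = 0.0417), where 5.87% of all probes were called, 1.55% higher and 4.31% lower in EV-treated lungs. The call was lost when any 1 array of the EV-treated, MSC-treated or smoke groups was left out, with an adjusted p of up to 0.246, and held in 10 of 20 other settings. Rab20, of phagosomes, and Rab21, of integrin uptake, were not called in any comparison.

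Of the endoplasmic reticulum and Golgi Rabs, 5 of 18 probes were higher and 3 lower in smoke lungs, with a median of -0.04. Rab1a, which starts transport from the endoplasmic reticulum, was at 0.80 and 0.70 in EV-treated, -0.16 and -0.49 in MSC-treated, 1.85 and 1.70 in smoke and 0.44 and 1.06 in normal-air lungs by its probe A_64_P164065. The smoke arrays were highest and the MSC-treated arrays lowest, neither overlapping another group, with differences of 1.03 ± 0.31 in smoke against normal air and -2.10 ± 0.31 in MSC-treated against smoke lungs (limma adjusted p = 0.0307 and 0.00115). The first of these calls held in 12 of 19 other settings and the other in all 19. The Rab1a probe A_44_P477577 differed by 0.78 and -0.71 and was not called. Rab2a was 1.34 ± 0.30 higher in smoke lungs and Rab6a, of traffic within and from the Golgi, 0.99 ± 0.30 (limma adjusted p = 0.0107 and 0.0300). These calls of Rab2a and Rab6a held in 18 and 13 of 19 other settings. Both genes were lower in EV-treated than in smoke lungs (-1.42 and -1.07). Rab33a was called higher in smoke lungs, at least 1.88-fold, with neither normal-air array well above background. That call held in 11 of 18 other settings, was lost without any 1 of the smoke or normal-air arrays (adjusted p up to 0.178), and turned to -1.16 under normexp, where it was called lower.

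Rab33b, which links the Golgi to autophagosome formation, was at -0.58 and -0.34 in EV-treated, -0.63 and -0.95 in MSC-treated, -1.18 and -0.80 in smoke and -0.32 and 0.75 in normal-air lungs. The normal-air replicates were far apart, the difference of -1.20 ± 0.40 (limma adjusted p = 0.0405) stayed called in 7 of 19 other settings, and the E1A scale gave 1.76. Rab34 was also lower in smoke (-1.08 ± 0.32, limma adjusted p = 0.0288), a call that held in 8 of 19 other settings and was 1.89 on the E1A scale. Rab43 was at -4.25 and -4.18 in EV-treated, -2.44 and -3.04 in MSC-treated, -4.10 and -4.57 in smoke and -3.98 and -4.60 in normal-air lungs, so MSC-treated lungs stood apart from the other groups. It was called in MSC-treated against smoke lungs (1.60 ± 0.36, limma adjusted p = 0.00668), was -2.43 there on the E1A scale, and between EV-treated and MSC-treated lungs it differed by -1.48 ± 0.36 (adjusted p = 0.0530). Rab18, Rab19, Rab1b, Rab6b and Rab36 were not called in any comparison.

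The small group of ciliary and other Rabs had 0 of 5 probes higher and 4 lower in smoke lungs, with a median of -1.01. Rab23, a regulator of Hedgehog signalling and ciliary traffic, was at -4.90 and -4.54 in EV-treated, -3.63 and -4.31 in MSC-treated, -6.07 and -5.86 in smoke and -4.61 and -4.04 in normal-air lungs by its probe A_64_P150181. The smoke arrays were lowest, at -1.64 ± 0.36 against normal air (limma adjusted p = 0.00931), with 1.32 on the E1A scale, and its other probe gave -0.97. The 2 probes of Rab28, a Rab of cilia and photoreceptors, gave -1.02 and -1.01, calls that held in 6 and 7 of 19 other settings and were 1.94 and 1.95 on the E1A scale. Beside these, 2 of the 3 probes of ciliated cell genes were called lower in smoke lungs, both of Foxj1, where 33.7% of all probes were called lower. The probe of Tekt1 went the other way, averaging -4.42 in smoke and -5.42 in normal-air lungs, and was not called. The mean level of the 3 probes was -2.49 to -2.30 on smoke and -2.22 to -1.24 on normal-air arrays. The part of ciliated cell numbers in the Rab values was not tested. Rab40b, which links Rabs to ubiquitin ligases, was called in MSC-treated lungs, at least 2.64-fold lower than in smoke lungs, and under normexp it was 1.47 and called higher.

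Against normal air, 0 Rab probes were called in EV-treated lungs and 0 in MSC-treated lungs by limma, as were 0% of all probes in both comparisons. At an unadjusted p under 0.05 there were 1 Rab probe, Rab3a, and 4.20% of all probes in EV-treated lungs, and 11 Rab probes and 21.6% of all probes in MSC-treated lungs. Rab differences ran between -0.67 and 1.14 in EV-treated and between -1.65 and 1.55 in MSC-treated lungs, with medians of -0.02 and -0.14, and between -2.20 and 3.46 in smoke lungs. The nearest to a call were Rab5b, 1.31 below normal air in MSC-treated lungs (first minus second -1.31 ± 0.30), and Rab43 (1.55 ± 0.36), both at a limma adjusted p of 0.110. On the E1A scale 9 Rab probes were lower in MSC-treated than in normal-air lungs and 0 higher, where 5.86% of all probes were lower and 0.0642% higher. A difference that misses the threshold with 2 arrays a group does not show that treated lungs had returned to the level of normal air.

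**Figure D5:**
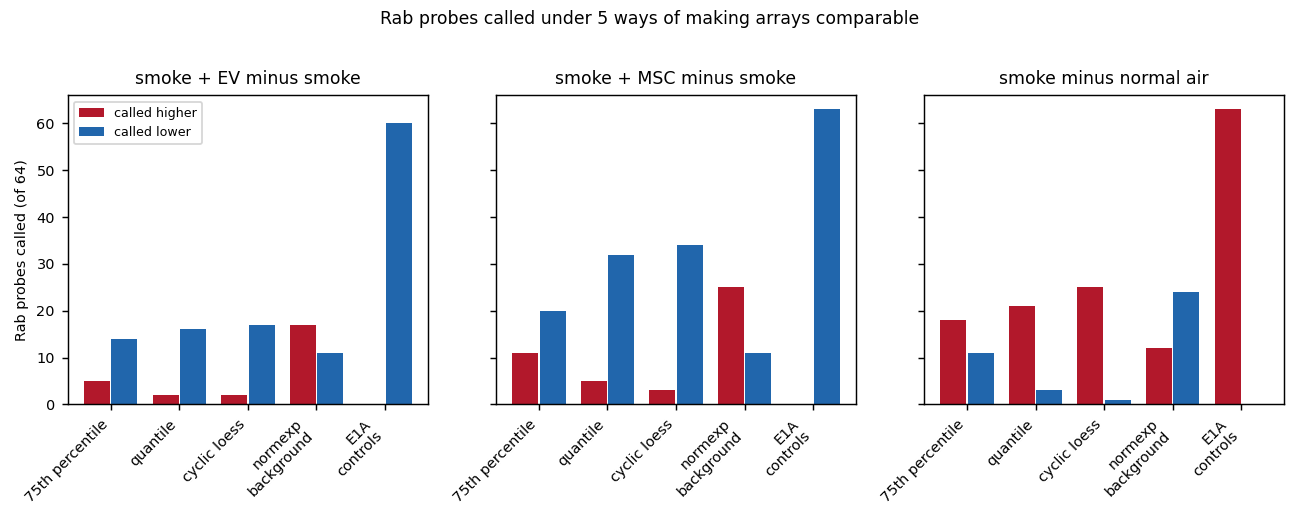
Number of the 64 kept Rab probes called higher (red) and lower (blue) in EV-treated against smoke, MSC-treated against smoke and smoke against normal-air lungs under 5 ways of making the arrays comparable. The percentile scale gives 18 higher and 11 lower in smoke lungs, the E1A controls 63 and 0, and normexp 12 and 24.

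The proteins that load, switch and use Rabs were measured on the same arrays. Their counts stand beside 12.8% of all probes called higher and 33.7% lower in smoke lungs, or 15.6% and 27.4% of the kept probes with a gene symbol. Of the prenylation and recycling factors, which attach the lipid anchor of Rabs and extract them from membranes, 4 of 10 probes were higher and 4 lower in smoke lungs, with all 8 genes measured. Chm, the escort protein for prenylation, was at -3.37 and -3.31 in smoke and -0.59 and 1.08 in normal-air lungs (-3.58 ± 0.61, limma adjusted p = 0.00434), and its relative Chml was also lower (-1.49). Gdi2, which extracts Rabs from membranes, was higher (1.18), as were both probes of Rabif, a chaperone of nucleotide-free Rabs (3.04 and 1.38). The exchange factors, which load GTP, had 6 of 29 probes higher and 5 lower, among them Rin3, for Rab5 (2.05), Hps4, for Rab32 and Rab38 (1.61), Madd, for Rab3 and Rab27 (1.30), Dennd1c (-1.59), Dennd2d (-1.12) and Ankrd27 (-1.02). The GTPase activating proteins, which switch Rabs off, had 3 of 32 higher and 9 lower, or 9.38% and 28.1%, near the shares of all probes. Among them were Tbc1d14 at -3.02, Tbc1d8 at 2.10 and Grtp1 at 1.53. Evi5, for Rab11, had 1 probe at 1.95 and 2 lower ones, at -1.99 and -5.58.

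Rab effectors had 12 of 49 probes higher and 12 lower in smoke lungs, or 24.5% each, with a median of -0.09. Appl2 (2.52) and Rufy1 (1.65), effectors of Rab5 and of Rab4 and Rab14, and Ehbp1l1 (1.70), of Rab8, were higher. Rab11fip2, an effector of the Rab11 family (-2.32), Osbpl1a, of Rab7 (-2.00), and Optn, of Rab8 (-1.61), were lower. The machinery of EV formation and secretion had 16 of 46 probes higher and 7 lower, or 34.8% and 15.2%, with a median of 0.43. Of all probes, 12.8% were higher and 33.7% lower, with a median of -0.56. With a gene symbol, 15.6% of kept probes were higher and 27.4% lower, with a median of -0.33. Cd81, a tetraspanin of EVs, was at -0.66 and -1.12 in EV-treated, -1.75 and -1.81 in MSC-treated, 2.19 and 1.41 in smoke and -0.70 and -1.03 in normal-air lungs, and both smoke arrays lay above the others. Stam, of the first sorting complex of multivesicular bodies, was higher in smoke (2.17), as was Pld2, a phospholipase of EV budding, at least 3.44-fold. Neither normal-air array was well above background at Pld2, and the count of this list was not split by that. Calls under the other settings, normexp among them, were counted for Rab probes only, so the counts of this and the other lists have no such check. Stx4, a plasma membrane SNARE, was at 3.99 and 4.20 in EV-treated, 5.38 and 4.95 in MSC-treated, 0.82 and 1.67 in smoke and 4.26 and 4.34 in normal-air lungs, and it (-3.06), Tsg101 (-1.66) and Flot2 (-1.55) were lower in smoke.

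Against smoke, the machinery of EV formation had 4 of 46 probes higher and 14 lower in EV-treated lungs. In MSC-treated lungs it had 9 higher and 19 lower. Its medians were -0.51 and -0.56, and those of all probes 0.50 and 0.67. Of all probes, 28.4% were higher and 10.6% lower in EV-treated lungs, and 41.9% and 16.9% in MSC-treated lungs. With a gene symbol these shares were 22% and 12.7% in EV-treated lungs, and 35.1% and 20.3% in MSC-treated lungs. The other lists had, in EV-treated lungs, 3 of 10 probes higher and 4 lower for prenylation factors, and 3 of 29 and 3 for exchange factors. Activating proteins had 8 of 32 higher and 2 lower there, and effectors 10 of 49 and 8. In MSC-treated lungs these were 4 and 4, 7 and 5, 12 and 6, and 13 and 10. On the E1A scale the median of all probes in smoke against normal-air lungs is 2.41, where the percentile scale gives -0.56. The differences of these lists shift by the same amount, since a factor common to an array moves all its probes alike. Most list genes named as lower in smoke, such as Optn, Tsg101 and Flot2, are therefore above 0 on that scale. Of the 4 probes of macrophage markers, 3 (Cd68, Mrc1 and Adgre1) were called higher in smoke lungs, where 12.8% of all probes were called higher. Marco went the other way, averaging -6.18 in smoke and -5.35 in normal-air lungs, and was not called. At each of Mrc1, Adgre1 and Marco, 1 of 2 normal-air arrays was well above background. The mean level of the 4 probes was -4.05 to -3.43 on EV-treated, -4.13 to -4.01 on MSC-treated, -3.23 to -2.35 on smoke and -4.24 to -3.83 on normal-air arrays. Whether macrophage number has a part in the Rab values was not tested.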

How the data were processed

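The 8 files hold scanner output of 1-colour arrays, read with Agilent Feature Extraction 10.7.3.1 on design 074036, per the file headers. The values used are the intensity of each spot, which the deposited files give as a processed signal, already background-corrected by that software, with flags for outlier, saturated and dim spots. RNA came from 30 mg of lung and 200 ng were labelled, per the labels' protocols. Of 62976 spots per array, 4259 control spots and outlier spots were left out and 0 were saturated. The log2 signal minus the array's 75th percentile over spots was averaged per probe, and a probe was kept where the software's flag put both arrays of any group clearly over background. Probes were named through RefSeq's GRCr8 table by accession without version: 21215 probes matched 16667 symbols. limma 3.58.1 in R 4.3.3 fitted 4 group means to all 8 arrays over all 29612 kept probes, with Benjamini-Hochberg adjustment at 0.05 in 6 comparisons. The fit was also run on simulated data with independent noise and no difference in brightness between arrays, so that run does not bear on the scaling. Residual degrees of freedom were 4 and prior 3.61. The number of arrays limits the precision.

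Where that flag was missing on both arrays of a group, the fold is a bound ("at least"), taken against the lowest signal well above background on the dim arrays or the probe's own, whichever was higher. Full values are given for the 6 highest and 6 lowest called differences whose groups do not overlap, and for 16 Rabs chosen whatever their values. Of each other list, the 3 called probes with the smallest p in each direction are named, except 1 that is not reported here. The Rab genes, the lists and the roles were chosen with earlier results of these data known. Settings tried besides were normexp with an offset of 50, quantile and cyclic loess normalization, scaling to 7 of the 10 E1A controls, other filters, probe rules, fits and each array left out. The percentile over probes, and over probes bright on all 8 arrays, were added after seeing the data.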

Additional observations from a re-analysis of the deposited data

How the results depend on the processing

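Each array was left out in turn, which leaves 1 array in that group, assumed to vary like the others. The count of Rab probes called was then 6 to 33 in smoke against normal-air lungs, 3 to 23 in EV-treated and 20 to 36 in MSC-treated lungs against smoke, and 0 to 1 between EV-treated and MSC-treated lungs. The replicate numbers did not pair the samples (correlations of -0.144 to 0.139 between same-numbered samples), and with the replicate number as a block 24, 17, 31 and 0 probes were called in these 4 comparisons. Scaling to the E1A controls gave 63, 60, 63 and 39, and 9 in MSC-treated against normal-air lungs. Without a filter on dim probes 10 were called in EV-treated against smoke lungs. Between EV-treated and MSC-treated lungs, with 1 called in the report, the count was 19 under normexp, 6 under quantile normalization and under a trended prior, 3 under cyclic loess and for the percentile over probes bright on all 8 arrays, 7 over probes detected on all 8 arrays, 2 with 1 probe a gene, with each gene's probes averaged and for the percentile over probes, and 0 without a filter, with the compared groups alone and without both smoke arrays. By limma, the 0 calls of EV-treated against normal-air lungs remained 0 in these settings. The direction depends on the scaling, and the cause was not tested.

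The differences below changed sign. Under normexp, smoke against normal-air lungs gave -0.01 for Rab3a, -0.13 for Rab3b, -0.58 for Rab32, -0.74 for Rab5a and -0.01 for Rab14 A_44_P205883. Under normexp, EV-treated against smoke lungs gave 0.50 for Rab32 and 0.53 for Rab5a. Under normexp, MSC-treated against smoke lungs gave 0.06 for Rab38, 0.62 for Rab3a, 0.11 for Rab2b A_44_P478104, 0.48 for Rab3b, 0.59 for Rab27b A_44_P592538, 0.35 for Rab14 A_44_P205883, 1.24 for Rab32 and 1.25 for Rab5a. On the E1A scale, smoke against normal-air lungs gave 0.76 for Rab35 A_44_P1111566, 1.32 for Rab23 A_64_P150181, 1.34 for Rab14 A_43_P12861, 1.55 for Rab31, 1.76 for Rab33b, 1.80 for Rab4a, 2.74 for Rab27b A_44_P592538, 2.50 for Rab27a, 2.28 for Rab14 A_44_P1084899 and 1.91 for Rab27b A_64_P114465. On the E1A scale, EV-treated against smoke lungs gave -0.61 for Rab35 A_44_P1111566, -1.0 for Rab14 A_43_P12861, -1.04 for Rab31, -1.24 for Rab23 A_64_P150181, -1.67 for Rab29, -1.89 for Rab14 A_44_P1084899, -1.89 for Rab27a, -2.05 for Rab27b A_64_P114465 and -2.48 for Rab27b A_44_P592538. On the E1A scale, MSC-treated against smoke lungs gave -0.85 for Rab35 A_44_P1111566, -1.76 for Rab14 A_43_P12861, -2.03 for Rab23 A_64_P150181, -2.37 for Rab31, -2.43 for Rab43, -2.57 for Rab27b A_64_P114465 and -3.08 for Rab14 A_44_P1084899. With each gene's probes averaged, smoke against normal-air lungs gave -0.48 for Rab35 A_64_P131071 and -0.62 for Rab14 A_44_P205883. With each gene's probes averaged, EV-treated against smoke lungs gave 0.49 for Rab14 A_44_P205883 and 0.35 for Rab35 A_64_P131071. With each gene's probes averaged, MSC-treated against smoke lungs gave 0.68 for Rab27b A_44_P592538, 1.00 for Rab14 A_44_P205883 and 0.76 for Rab35 A_64_P131071. Under cyclic loess, smoke against normal-air lungs gave 0.12 for Rab27b A_44_P592538 and 0.01 for Rab27a. Under cyclic loess, EV-treated against smoke lungs gave -0.31 for Rab27b A_44_P592538. Under quantile normalization, EV-treated against smoke lungs gave -0.14 for Rab27b A_44_P592538. With the percentile over probes, EV-treated against smoke lungs gave -0.15 for Rab27b A_44_P592538. With the percentile over probes bright on all 8 arrays, smoke against normal-air lungs gave 0.08 for Rab27b A_44_P592538. With the percentile over probes bright on all 8 arrays, EV-treated against smoke lungs gave -0.23 for Rab27b A_44_P592538. With 1 array left out, EV-treated against smoke lungs gave -0.15 to 0.17 for Rab27b A_44_P592538 and -1.57 to 0.00 for Rab5a. With 1 array left out, MSC-treated against smoke lungs gave -0.34 to 0.19 for Rab27a, -0.96 to 0.78 for Rab27b A_44_P592538, -0.57 to 0.18 for Rab14 A_44_P205883 and -0.62 to 0.10 for Rab32. Other called probes turned as well: under normexp, smoke against normal-air lungs gave -1.16 for Rab33a, and MSC-treated against smoke lungs 0.30 for Rab26, 1.87 for Rab33a, 1.47 for Rab40b and 0.24 for Rab4b A_42_P634910. On the E1A scale the first comparison gave 1.99 for Rab23 A_44_P1109039, 1.95 and 1.94 for Rab28, 2.03 for Rab2b A_64_P149993 and 1.89 for Rab34, and the other -3.02 for Rab29, -2.91 for Rab2b A_64_P149993, -2.76 for Rab34, -2.97 for Rab4a and -3.09 for Rab7b.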
